A study of Homo sapiens with 6 samples.

Results

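The genes described here are 46 nucleolar factors of ribosome biogenesis, taken by their symbols from a list of names out of 60605 genes in the deposited table. All 46 were measured well enough to be tested, with between 110 and 33467 estimated counts per gene and library, among 14748 genes tested with all 6 libraries and 15130 genes tested without shControl 2. By role they comprised 3 core proteins of the box C/D small nucleolar ribonucleoproteins (snoRNPs), 2 subunits of RNA polymerase I, 5 nucleolar phosphoproteins and chaperones, 16 factors of the small ribosomal subunit and 20 factors of the large subunit.

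The study used MDA-MB-231, a line of triple-negative breast cancer, and compared cells that carried a control short hairpin RNA (shControl) with cells carrying a hairpin against PUS1 (shPUS1), a pseudouridine synthase that modifies uridines in tRNA, mRNA and other RNAs. Poly(A) RNA was sequenced from 3 libraries of each group, which the labels call biological replicates. Both groups shared the line, the medium with serum and, per the study's methods, lentiviral delivery with puromycin selection. The hairpin in the sequenced cells is not named, neither a rescue nor another hairpin was sequenced, and the sources do not say whether the replicates of a group were selected separately, so p-values here measure the spread between these cultures. No time after transduction is given in the labels.

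Ribosomes are assembled in the nucleolus. RNA polymerase I transcribes a long precursor rRNA there, box C/D snoRNPs methylate its riboses, a large processome folds and cuts the part that becomes the small subunit, and a separate series of complexes matures the large subunit before both are exported. The mRNAs of these factors are known for rising and falling together with cell growth, and many of them are known targets of the transcription factor MYC, which binds the sequence CACGTG, called an E-box, with its partner MAX.

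Of 3 promoter motifs searched, this E-box was the one that was more frequent in the members than in the tested genes, and the windows below therefore show it. RefSeq (GRCh38.p14) gave a start window, from 250 bases before to 50 bases after the annotated start, for 39 of the 46 members, and URB2, NOP58, RRS1, BOP1, RRP12, NOLC1 and RRP1B are only named here. The letters CACGTG, which read the same on both strands, were present in the windows of 18 of the 39 members (46.2%), against 8.77% of the windows of all 27305 genes with an entry, 12.3% of the genes tested with all 6 libraries and 13.4% of the tested genes whose window was over 60% G and C. The members' windows held 65.0% G and C at the median and those of all genes 59.7%. The shares were closer for 2 other promoter motifs, searched on both strands. The GC box GGGCGG was present for 74.4% of the members and 76.5% of the tested genes (48.3% of all genes), and the CCAAT box CCAAT for 41.0% and 43.3% (39.7% of all genes). A match is a description of these letters and not evidence that a factor binds there.

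Stretches of 30 bases around the E-box are given for the 6 members with the motif that had the smallest p in the comparison of all 6 libraries, and for DDX21 and NOC3L, which were added for contrast because their levels differed little between the groups. The capitals mark the E-box, and each sequence is written 5′ to 3′ on the strand of the gene.
FBL: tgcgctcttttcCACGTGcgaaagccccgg
UTP14A: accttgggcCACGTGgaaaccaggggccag
RRP9: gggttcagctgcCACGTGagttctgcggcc
PES1: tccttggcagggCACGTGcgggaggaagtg
MRTO4: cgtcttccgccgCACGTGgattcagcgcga
MYBBP1A: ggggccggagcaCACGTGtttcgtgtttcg
DDX21: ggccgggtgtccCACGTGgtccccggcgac
NOC3L: tagggacttcggCACGTGtgtcattccccg

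In GRCh38.p14 these lie at chr19:39846356-39846385 for FBL (minus strand), chrX:129905914-129905943 for UTP14A (plus strand), chr3:51941892-51941921 for RRP9 (minus strand), chr22:30591880-30591909 for PES1 (minus strand), chr1:19251807-19251836 for MRTO4 (plus strand), chr17:4555340-4555369 for MYBBP1A (minus strand), chr10:68956604-68956633 for DDX21 (plus strand) and chr10:94362903-94362932 for NOC3L (minus strand). The motif sat close to the start in most of them. Counted from the RefSeq start, its first base was base 7 for FBL, 14 for PES1, 15 for MRTO4, 20 for NOC3L and 28 for MYBBP1A, it spanned the start of RRP9, and it lay upstream at base -31 for DDX21. For UTP14A it began at base -241 from that start. The starts in the deposited table can differ from those of RefSeq. There PES1 starts at 30607083 on the minus strand and DDX21 at 68956170 on the plus strand, so that both windows lie inside the deposited genes, and UTP14A starts at 129906121. The 207 bases from the beginning of the UTP14A window up to that deposited start (chrX:129905914-129906120, plus strand) are shown because UTP14A had the largest difference of these 8 genes with all 6 libraries.
UTP14A upstream: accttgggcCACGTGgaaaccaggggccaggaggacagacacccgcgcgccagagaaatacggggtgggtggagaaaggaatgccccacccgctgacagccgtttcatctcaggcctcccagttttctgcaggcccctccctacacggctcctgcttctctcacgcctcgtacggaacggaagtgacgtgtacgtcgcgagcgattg

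**Figure D1:**
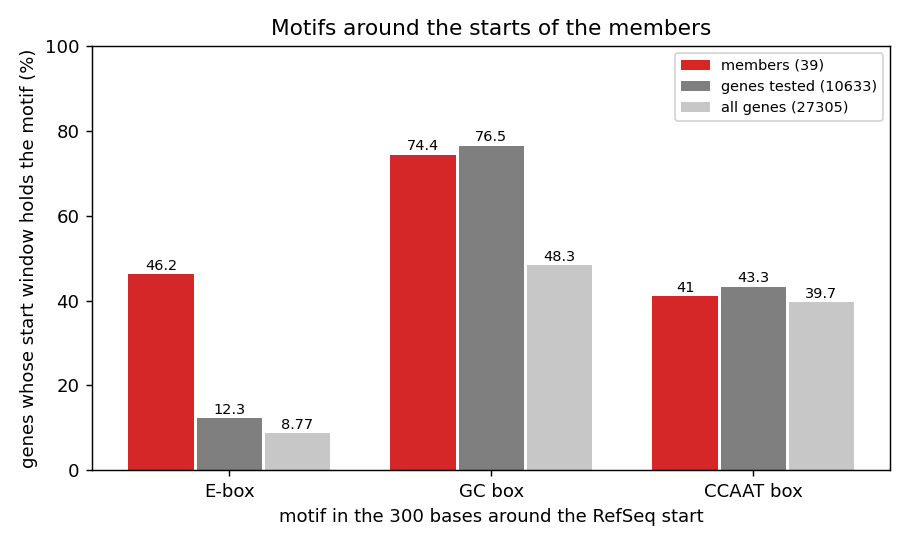
Bars give the percent of genes whose RefSeq start window (250 bases before to 50 bases after the start) holds each motif, for 39 members, 10633 tested genes and all 27305 genes with an entry. The E-box bar of the members stands at 46.2% against 12.3% and 8.77%, while the bars of members and tested genes are 74.4% and 76.5% for the GC box and 41.0% and 43.3% for the CCAAT box.

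The libraries held between 14241505 and 19625998 estimated counts. PUS1 itself was measured at 14.5, 27.5 and 12.1 CPM (counts per 1000000 counts of the library) in shControl 1 to 3 and at 6.57, 5.47 and 5.37 CPM in shPUS1 1 to 3. All shPUS1 libraries were below all shControl libraries, with a log2 fold change of -1.64 ± 0.32 (SE; edgeR's quasi-likelihood test, adjusted p = 0.0462), and of -1.20 ± 0.16 without shControl 2 (adjusted p = 0.00311). The call with all 6 libraries was lost without shControl 1 (adjusted p = 0.0905) and without shPUS1 1, 2 or 3 (0.208, 0.253 and 0.192). The library shControl 2 stood apart from the rest. Its log2 CPM correlated across genes with those of shControl 1 and 3 at Pearson's r of 0.951 and 0.952, against 0.981 between those 2 libraries and 0.987 to 0.991 among the shPUS1 libraries, and every comparison below is therefore given with and without it. The line's own markers were present, with vimentin (VIM) at 1490 to 2650 CPM in all 6 libraries, while the estrogen receptor gene ESR1 had 0 to 10 counts, the progesterone receptor gene PGR 0 to 4 and the leukocyte gene PTPRC 0 to 2. Of 6 markers of embryonic kidney lines 0 were high enough to be tested.

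Per length, the members spanned a wide range of levels. Nucleophosmin (NPM1) led with a mean of 137 FPKM (fragments scaled to exonic length and library total) over the 6 libraries, followed by fibrillarin (FBL) at 92.2, the helicase gene DDX21 at 85.0, nucleostemin (GNL3) at 83.1, NOLC1 at 76.6 and nucleolin (NCL) at 70.0 FPKM. All other members lay between 2.81 FPKM for URB2 and 33.9 FPKM for UTP18, and the RNA polymerase I subunits were near the lower end, with 4.09 FPKM for POLR1A and 4.90 FPKM for POLR1B.

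The members varied most between shControl 2 and all other libraries. It was the highest of the 6 libraries for 43 of 46 members (93.5%), against 34.4% of all tested genes, and FBL, GNL3 and DDX10 were the exceptions. Relative to the mean of shControl 1 and 3, it stood at a median of 0.80 on the log2 scale for the members, or 1.74-fold, against 0.01 for all tested genes. The excess reached 2-fold in 17 members, and 0 members were below the mean of the other 2 controls. UTP20, a scaffold of the small subunit processome named here after its values were seen, showed the widest gap, with 15.8, 87.0 and 25 CPM in shControl 1 to 3 against 22.1, 22.7 and 17.3 CPM in shPUS1 1 to 3. With 1 library on that side no test was made.

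Summed over the 46 genes per library total, without TMM scaling, the members took 5360, 7910 and 4750 CPM in shControl 1 to 3 and 4370, 4140 and 4770 CPM in shPUS1 1 to 3. The sum in shPUS1 3 lay above that in shControl 3, so the groups overlapped in it even though shControl 2 was far above every other library. In these bulk samples, fewer cells expressing a gene and less of its RNA per cell cannot be told apart.

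**Figure D2:**
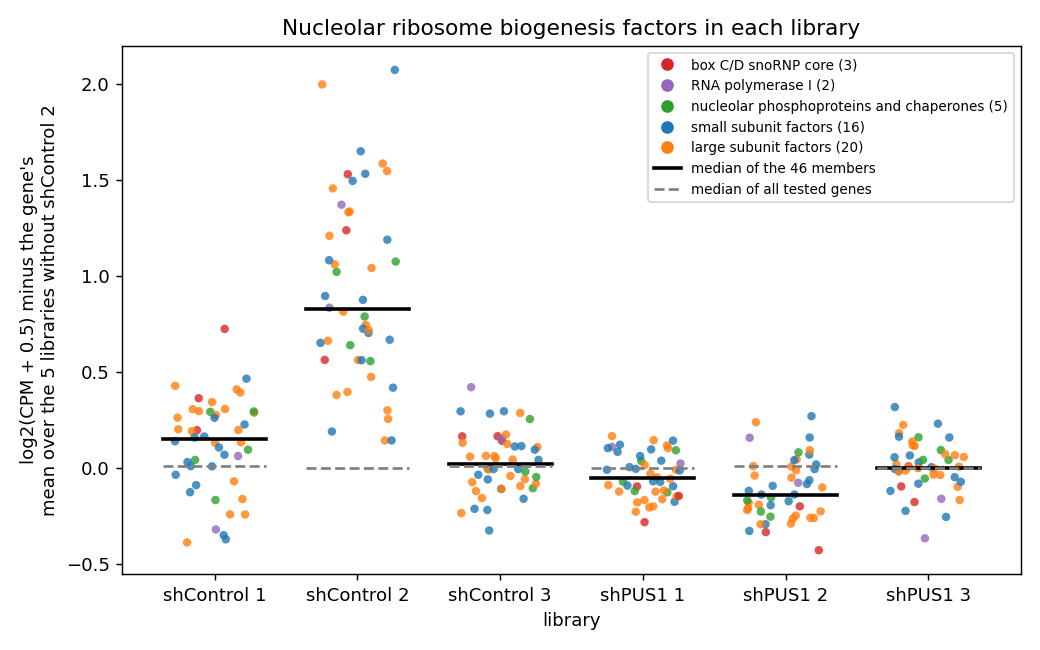
Each point is 1 of the 46 members in 1 library, as log2(CPM + 0.5) minus that gene's mean over the 5 libraries without shControl 2, coloured by role, with the members' median (black line) and the median of all tested genes (dashed grey line). The members' median is 0.83 in shControl 2 and between -0.14 and 0.15 in the other 5 libraries, while the median of all genes stays within 0.01 of 0.

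With all 6 libraries, 0 members passed an adjusted p of 0.05 in edgeR's quasi-likelihood test in either direction, where 0.841% of all tested genes were lower and 1.74% higher in shPUS1. At an unadjusted p under 0.05, 14 members were lower and 0 higher, against 12.8% of all tested genes that were lower. DESeq2 called 6 members lower (FBL, UTP14A, BOP1, RRS1, NOP58 and RRP9) and 0 higher, against 5.58% of the genes it tested. The fitted fold changes were negative for 43 of 46 members (93.5%, against 52.7% of all genes), with a median of -0.48 on the log2 scale (all genes, -0.03) and a range from -1.33 to 0.16. Their standard errors were wide, with a median of 0.24.

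Without shControl 2, edgeR called 6 members lower in shPUS1 (FBL, NOP58, UTP14A, RRP9, BOP1 and LAS1L), or 6 of 46 where 8.79% of all tested genes were lower, and 0 members higher, where 9.8% of all genes were. DESeq2 on the same 5 libraries called 5 members lower and 1 higher, NOP2, against 8.06% and 12.4% of the genes it tested. Leaving out a further library gave 3 lower calls without shControl 1 (6.28% of all genes), 11 without shControl 3 (11.6%), and 1, 2 and 3 without shPUS1 1, 2 and 3 (2.71%, 3.31% and 5.2%). The members' median was -0.11 (all genes, -0.02), the range narrowed to -0.77 to 0.33, and 33 of 46 fold changes were negative (71.7%, against 52.1% of all genes). The median standard error was 0.12. The absolute log2 fold change was at least 1 for 5 members with all 6 libraries and for 0 members without shControl 2, and under 0.2 for 24 members in the latter. The 2 comparisons share 5 libraries and are given side by side.

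Counted without a model, 17 of 46 members had every shPUS1 library below every shControl library, against 17.3% of all tested genes. Set against shControl 1 and 3 alone, 17 members had every shPUS1 library below both, against 25.7% of all genes, and 5 members (DDX21, NOC3L, NOP2, URB2 and WDR43) had every shPUS1 library above both, against 25.3%.

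**Figure D3:**
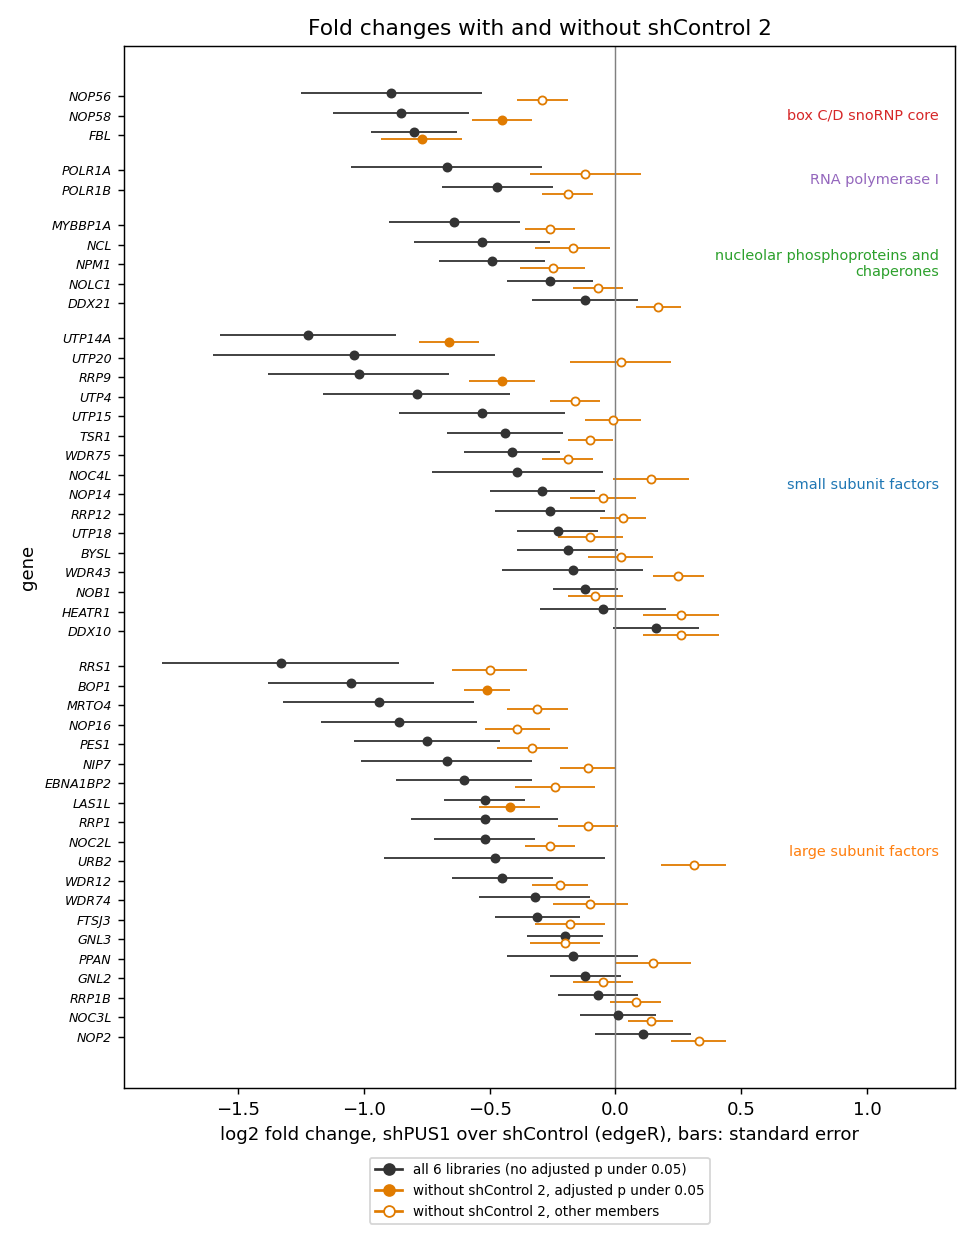
Points give the log2 fold change of each member, shPUS1 over shControl, from edgeR with all 6 libraries (black) and without shControl 2 (orange; filled where the adjusted p was under 0.05), with bars of 1 standard error, grouped by role. The black points run from -1.33 to 0.16, the orange ones from -0.77 to 0.33, and the 6 filled points are FBL, NOP58, UTP14A, RRP9, BOP1 and LAS1L.

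The box C/D core had the most negative median of the 5 roles in both comparisons, -0.85 with all 6 libraries and -0.45 without shControl 2. All 3 core genes had every shPUS1 library below every shControl library. FBL encodes the methyltransferase of these particles. It was measured at 292, 261 and 198 CPM in shControl 1 to 3 and at 145, 131 and 156 CPM in shPUS1 1 to 3. shControl 2 lay between the other controls, and FBL was 1 of the 3 members for which it was not the highest library. Its log2 fold change was -0.80 ± 0.17 with all 6 libraries, just outside the threshold (edgeR's quasi-likelihood test, unadjusted p = 0.00138, adjusted p = 0.0513), and without shControl 2 it fell by 0.77 ± 0.16 (adjusted p = 0.0144), or 41.5%. Leaving out 1 of the remaining 5 libraries at a time or changing the fit moved its adjusted p between 0.000161 and 0.0808.

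NOP58, a core protein that helps to hold the guide RNA, was measured at 77.2, 142 and 67.2 CPM in the controls and at 56.0, 47.4 and 56.0 CPM in shPUS1. Here shControl 2 was about 2-fold above its neighbours (1.97), and the shPUS1 libraries lay closely together below all 3 controls. The log2 fold change was -0.85 ± 0.27 (edgeR, adjusted p = 0.115) with all 6 libraries, and without shControl 2 NOP58 fell by 0.45 ± 0.12 (adjusted p = 0.0313), a call made in 5 of 10 settings. Its partner NOP56 was at 106, 268 and 102 CPM against 83.5, 80.4 and 93.0 CPM. With 2.58-fold more in shControl 2 than in the other controls, NOP56 gave log2 fold changes of -0.89 ± 0.36 (adjusted p = 0.173) and, without that library, -0.29 ± 0.10 (adjusted p = 0.079), neither past the threshold.

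The genes of the 2 RNA polymerase I subunits did not pass in either comparison. POLR1A, the catalytic core of the enzyme together with POLR1B, was measured at 50.4, 164 and 84.6 CPM in the controls and at 68.1, 70.4 and 48.8 CPM in shPUS1. The groups overlapped, and shControl 1 was close to the lowest shPUS1 library. Its log2 fold changes were -0.67 ± 0.38 (edgeR, adjusted p = 0.304) and -0.12 ± 0.22 without shControl 2 (adjusted p = 0.743). POLR1B stood at 40.7, 69.9 and 43.4 CPM against 39.6, 36.9 and 34.8 CPM. There every shPUS1 library was below every control, but by a small margin, with log2 fold changes of -0.47 ± 0.22 (adjusted p = 0.219) and -0.19 ± 0.10 (adjusted p = 0.219).

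Among the nucleolar phosphoproteins and chaperones, with a median of -0.49 and of -0.17 without shControl 2, 0 of 5 passed in either comparison by edgeR or DESeq2. MYBBP1A, a nucleolar protein that binds RNA polymerase I and MYB, was at 48.6, 100 and 56.4 CPM in the controls and at 44.9, 41.9 and 45.4 CPM in shPUS1. The groups did not overlap, and the log2 fold changes were -0.64 ± 0.26 (edgeR, adjusted p = 0.177) and -0.26 ± 0.10 (adjusted p = 0.117). NPM1, a chaperone of histones and ribosomal proteins and the most abundant member, was at 1240, 1750 and 1010 CPM against 927, 849 and 1080 CPM.

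For NPM1 the shPUS1 3 library was above shControl 3, and the log2 fold changes were -0.49 ± 0.21 (adjusted p = 0.190) and -0.25 ± 0.13 (adjusted p = 0.206). NCL, which binds precursor rRNA and chromatin, was at 652, 1080 and 494 CPM against 489, 454 and 594 CPM, with groups that overlapped in the same way. It gave -0.53 ± 0.27 (adjusted p = 0.258) and -0.17 ± 0.15 (adjusted p = 0.467). DDX21, an RNA helicase that couples transcription of rRNA to its processing, was at 345, 604 and 375 CPM in the controls and at 413, 410 and 399 CPM in shPUS1. Apart from shControl 2, the shPUS1 libraries were the higher ones for DDX21, and its log2 fold change was -0.12 ± 0.21 (adjusted p = 0.750) with all 6 libraries and 0.17 ± 0.09 without shControl 2 (adjusted p = 0.199).

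The 16 small subunit factors had a median of -0.34 with all 6 libraries and of -0.03 without shControl 2, where 9 of 16 fold changes were negative and 2 genes were called lower, UTP14A and RRP9 (8.79% of all genes). UTP14A, a processome protein needed for the early cuts of the precursor, was at 22.9, 52.7 and 20.3 CPM in the controls and at 14.5, 13.0 and 13.7 CPM in shPUS1. Its shPUS1 values were nearly the same (SD of 0.722 CPM, n = 3) and lay below all controls. The log2 fold change was -1.22 ± 0.35 (edgeR, adjusted p = 0.0926), and without shControl 2 UTP14A fell by 0.66 ± 0.12 (adjusted p = 0.00861), or 36.8%, a call made in 9 of the 10 settings tried with those libraries.

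RRP9 encodes a protein of the snoRNP that guides the first cuts of the precursor. It was at 14.5, 36.6 and 15.1 CPM in the controls and at 11.5, 9.96 and 11.3 CPM in shPUS1. Every shPUS1 library was below every control, by less than the 2.48-fold excess of shControl 2, with a log2 fold change of -1.02 ± 0.36 (adjusted p = 0.135) and a fall by 0.45 ± 0.13 without shControl 2 (edgeR, adjusted p = 0.0441). That call was made in 2 of 10 settings. WDR75, a processome protein that also acts in rRNA transcription, was at 56.7, 86.0 and 56.9 CPM against 50, 46.6 and 53.7 CPM, and its differences of -0.41 ± 0.19 (adjusted p = 0.212) and -0.19 ± 0.10 (adjusted p = 0.217) did not pass.

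HEATR1, a large processome scaffold also needed for rRNA transcription, had the smallest absolute fold change of the small subunit factors with all 6 libraries, though not without shControl 2, where UTP15 did. It was at 35.9, 73.5 and 48.0 CPM in the controls and at 51.5, 56.3 and 44.0 CPM in shPUS1, so that the groups were interleaved. Its log2 fold change was -0.05 ± 0.25 (edgeR, adjusted p = 0.907) and 0.26 ± 0.15 without shControl 2 (adjusted p = 0.243). Of the other 12 small subunit factors 0 were called by edgeR in either comparison, with log2 fold changes from -1.04 for UTP20 to 0.16 for DDX10. Without shControl 2 UTP20 stood at 0.02 ± 0.20, DDX10, a helicase gene, at 0.26 ± 0.15 and WDR43, which helps to recruit the processome, at 0.25 ± 0.10 (adjusted p = 0.126), and UTP15 at -0.01 ± 0.11.

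The 20 large subunit factors had a median of -0.50 and, without shControl 2, of -0.19, where 15 of 20 were negative and 2 were called lower, BOP1 and LAS1L, near the 8.79% of all genes. BOP1, a subunit of the PeBoW complex that matures the large subunit precursor, was at 58.1, 138 and 57.3 CPM in the controls and at 40.6, 40.2 and 41.7 CPM in shPUS1. Its spread within shPUS1 was small (SD of 0.791 CPM, n = 3) and all 3 libraries were well below shControl 1 and 3. It gave -1.05 ± 0.33 (edgeR, adjusted p = 0.111), and without shControl 2 BOP1 fell by 0.51 ± 0.09 (adjusted p = 0.00842), or 29.6%, a call made in 8 of 10 settings. Its partners in the complex were not called. PES1 stood at -0.75 ± 0.29 (adjusted p = 0.160) and -0.33 ± 0.14 (adjusted p = 0.119), and WDR12 at -0.45 ± 0.20 (adjusted p = 0.197) and -0.22 ± 0.11 (adjusted p = 0.182).

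LAS1L, part of the nuclease complex that cuts the internal spacer of the precursor, was at 54.8, 61.0 and 43.0 CPM in the controls and at 36.7, 35.5 and 38.4 CPM in shPUS1. Its excess in shControl 2 was only 1.25-fold, and the groups did not overlap. The log2 fold change was -0.52 ± 0.16 (edgeR, adjusted p = 0.0987), and without shControl 2 LAS1L fell by 0.42 ± 0.12 (adjusted p = 0.0467), a call made in 5 of 10 settings. RRS1, which helps to bring the smallest rRNA into the large subunit precursor, had the most negative fold change of all members with all 6 libraries. It stood at 16.2, 49.1 and 13.1 CPM against 10.1, 9.63 and 11.6 CPM. shControl 2 was 3.34-fold above the other controls here, and the log2 fold changes were -1.33 ± 0.47 (adjusted p = 0.135) and -0.50 ± 0.15 (adjusted p = 0.0513), the latter just outside the threshold.

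NOC3L, a partner of NOC2L in the export of the large subunit precursor, differed least of all members with all 6 libraries. It was at 44.0, 57.0 and 42.8 CPM in the controls and at 46.7, 49.3 and 48.6 CPM in shPUS1, which put every shPUS1 library above shControl 1 and 3 and below shControl 2. Its log2 fold changes were 0.01 ± 0.15 (edgeR, adjusted p = 0.984) and 0.14 ± 0.09 (adjusted p = 0.304). Of the large subunit factors not yet given, 0 were called by edgeR. Without shControl 2 they ran from -0.39 ± 0.13 for NOP16 (adjusted p = 0.0749) to 0.33 ± 0.11 for NOP2, an rRNA methyltransferase gene that DESeq2 called higher, at 43.5, 68.0 and 46.2 CPM against 57.9, 51.9 and 60.3 CPM (edgeR, adjusted p = 0.061).

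**Figure D4:**
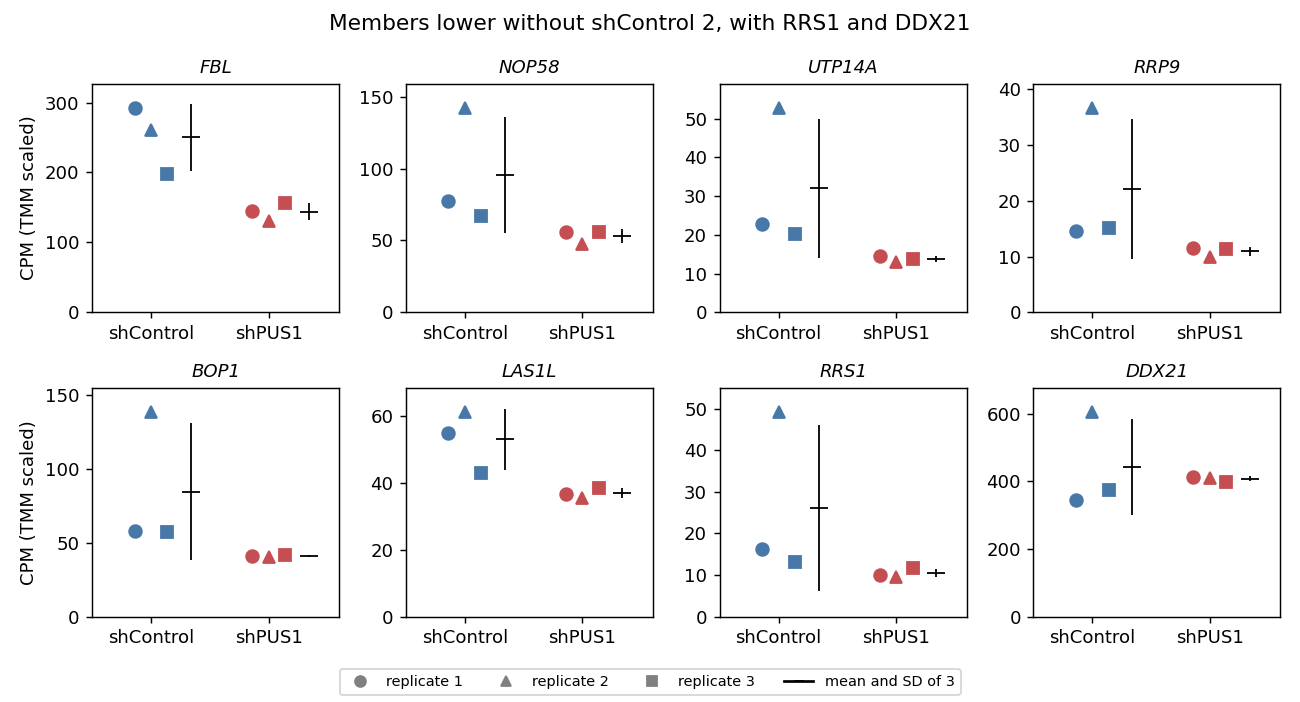
TMM-scaled CPM of 8 members in each of the 6 libraries (circle, triangle and square for replicates 1, 2 and 3), with the mean and SD of each group of 3 beside the points and every axis starting at 0. The first 6 panels are the members called lower without shControl 2; the triangle of shControl 2 is the highest point in every panel except that of FBL, and in the DDX21 panel the shPUS1 points lie between shControl 2 and the other controls.

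Some members share sequence with other genes, and whether counting was stranded is not stated. At least 5% of the 100-base stretches of 13 members occur in transcripts of another gene in GENCODE release 29, among them PPAN (50.6%, with the readthrough PPAN-P2RY11), NOP2 (44.3%), HEATR1 (21.0%), NPM1 (8.8%, with pseudogenes) and RRS1 (5.9%), so that values of these genes are less certain. FBL, NOP58, UTP14A, RRP9, BOP1 and LAS1L were not among the 13. The stretches came from GENCODE and not from the deposited gene models, and only 13 of the 46 members had the same start and end in both. For LAS1L the deposited exonic length was 12555 bases, against 5589 exonic bases in GENCODE, so part of it was not checked.

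The medians of members with and without the E-box lay close together, and their difference was not tested. The 18 members with it had medians of -0.44 with all 6 libraries and -0.13 without shControl 2, and the 21 members with a window but no E-box had -0.47 and -0.12. The excess of shControl 2 was 0.82 and 0.81 on the log2 scale, and 3 and 1 members were called lower without that library. NOP58 and BOP1, also called, have no window and are in neither group.

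MYC itself had another order among the control libraries than the members. It was measured at 321, 139 and 316 CPM in shControl 1 to 3 and at 232, 180 and 229 CPM in shPUS1. Thus shControl 2, in which the members were highest, had the lowest MYC value of the 6 libraries, 0.436-fold of the mean of the other controls. The log2 fold change of MYC was -0.28 ± 0.30 with all 6 libraries (edgeR, adjusted p = 0.585), and without shControl 2 MYC fell by 0.58 ± 0.12 (adjusted p = 0.0150), or 33.2%. Of the 9 tested genes of the MYC network, edgeR called 3 lower (MYC, MXD3 and MXI1) and 1 higher without shControl 2. Of all tested genes, 8.79% were lower and 9.8% higher there. The higher gene was MXD1, a partner of MAX that opposes MYC, at 26.8, 12 and 29.8 CPM against 50.6, 56.0 and 49.3 CPM. Its log2 fold changes were 1.19 ± 0.31 (edgeR, adjusted p = 0.0742) and 0.87 ± 0.11 (adjusted p = 0.00224). MXI1, of the same family, went the other way, at 88.0, 24.7 and 85.9 CPM against 58.5, 59.2 and 63.5 CPM. It gave -0.13 ± 0.41 (adjusted p = 0.860) and -0.53 ± 0.09 (adjusted p = 0.0075). MXD3, also of that family, was at -0.70 ± 0.17 (adjusted p = 0.0653) and fell by 0.68 ± 0.14 without shControl 2 (adjusted p = 0.0148). MAX was at 0.29 ± 0.12 (adjusted p = 0.192) and 0.24 ± 0.11 (adjusted p = 0.160). Whether MYC has a part in the members' values was not tested.

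Other genes of ribosome production came from lists written by function but with earlier results known. With all 6 libraries their medians were nearer to 0 than that of the members. Without shControl 2 this order did not hold for most lists. The members were then at -0.11, other RNA polymerase I and rDNA transcription genes at -0.22 and the RNA exosome at -0.12. Cytosolic and mitochondrial ribosomal proteins were at -0.30 and -0.18, and only the other biogenesis factors (-0.08) and H/ACA genes (0.03) were nearer to 0. Of 87 other ribosome biogenesis factors edgeR called 0 with all 6 libraries. At an unadjusted p under 0.05, 16 were lower and 1 higher, and DESeq2 called 4 lower. Without shControl 2 edgeR called 4 lower and 2 higher, and the medians were -0.24 and -0.08. For this and the following lists, the shares of all tested genes without shControl 2 were 8.79% lower and 9.8% higher. With all 6 libraries 12.8% were lower at an unadjusted p under 0.05 and 5.58% were lower by DESeq2. NLE1, which acts in large subunit maturation, was at 25.3, 38.2 and 27.9 CPM in the controls and at 16.7, 17.7 and 17.1 CPM in shPUS1, and its log2 fold changes were -0.83 ± 0.18 (edgeR, adjusted p = 0.0572) and -0.64 ± 0.10 (adjusted p = 0.00622). WDR3, a small subunit processome protein, was at -0.57 ± 0.15 (adjusted p = 0.0782) and -0.42 ± 0.09 (adjusted p = 0.0189). NVL, not called, was at -0.64 ± 0.21 (adjusted p = 0.115) and -0.41 ± 0.12 (adjusted p = 0.0506). Also called lower without shControl 2 was NOP53 (-0.71 ± 0.11, edgeR adjusted p = 0.00562). The 2 called higher there were SENP3 (0.44 ± 0.09, adjusted p = 0.0139) and TEX10 (0.43 ± 0.09, adjusted p = 0.0162).

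Of 13 further genes of RNA polymerase I and rDNA transcription, 1 was called lower without shControl 2 and 0 with all 6 libraries (edgeR, with 4 lower at an unadjusted p under 0.05 and 0 by DESeq2), with medians of -0.33 and -0.22. It was TAF1D, of the promoter selectivity factor, at 218, 193 and 179 CPM against 135, 128 and 163 CPM, or -0.47 ± 0.14 (edgeR, adjusted p = 0.101) and -0.49 ± 0.13 (adjusted p = 0.0383). The subunit genes POLR1E (-0.74 ± 0.27 and -0.36 ± 0.11) and POLR1H (-0.43 ± 0.16 and -0.44 ± 0.14) did not pass. Of the 6 H/ACA snoRNP genes, which serve pseudouridylation of rRNA, NHP2 was called lower without shControl 2 (-0.69 ± 0.22, adjusted p = 0.114, and -0.41 ± 0.12, adjusted p = 0.0492), while DKC1, the synthase of these particles, stood at -0.37 ± 0.24 and -0.05 ± 0.12 and SHQ1 at 0.23 ± 0.15 and 0.28 ± 0.12.

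The RNA exosome, which trims rRNA precursors, had 4 of 12 genes called lower without shControl 2 and 0 called with all 6 libraries (edgeR, with 4 lower and 1 higher at an unadjusted p under 0.05 and 3 lower by DESeq2), with medians of -0.42 and -0.12. EXOSC9 was at 76.5, 86.2 and 62.0 CPM in the controls and at 45.0, 43.3 and 50.9 CPM in shPUS1, with no overlap between the groups. Its log2 fold changes were -0.69 ± 0.15 (edgeR, adjusted p = 0.0575) and -0.59 ± 0.12 (adjusted p = 0.0161). On chromosome 4 EXOSC9 (plus strand, up to 121817021) overlaps the cyclin gene CCNA2, given below (minus strand, from 121816444). Whether reads of 1 gene were counted for the other was not checked. EXOSC5 (-0.70 ± 0.16 and -0.62 ± 0.13, adjusted p = 0.0618 and 0.0161) and EXOSC2 (-0.80 ± 0.21 and -0.52 ± 0.09, adjusted p = 0.0806 and 0.00896) had similar values. For the cytosolic ribosomal proteins, the products that the members help to assemble, edgeR called 0 of 83 tested genes with all 6 libraries (50 were lower at an unadjusted p under 0.05, and DESeq2 called 20 lower) and 21 lower and 0 higher without shControl 2, with medians of -0.37 and -0.30 and an excess of shControl 2 of 0.19. For the mitochondrial ribosomal proteins, edgeR called 0 of 77 lower and 1 higher with all 6 libraries. There 26 were lower and 2 higher at an unadjusted p under 0.05, and DESeq2 called 15 lower and 2 higher. Without shControl 2 edgeR called 18 lower and 2 higher, where 8.79% of all genes were lower and 9.8% higher. The medians were -0.37 and -0.18 and the excess was 0.42.

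**Figure D5:**
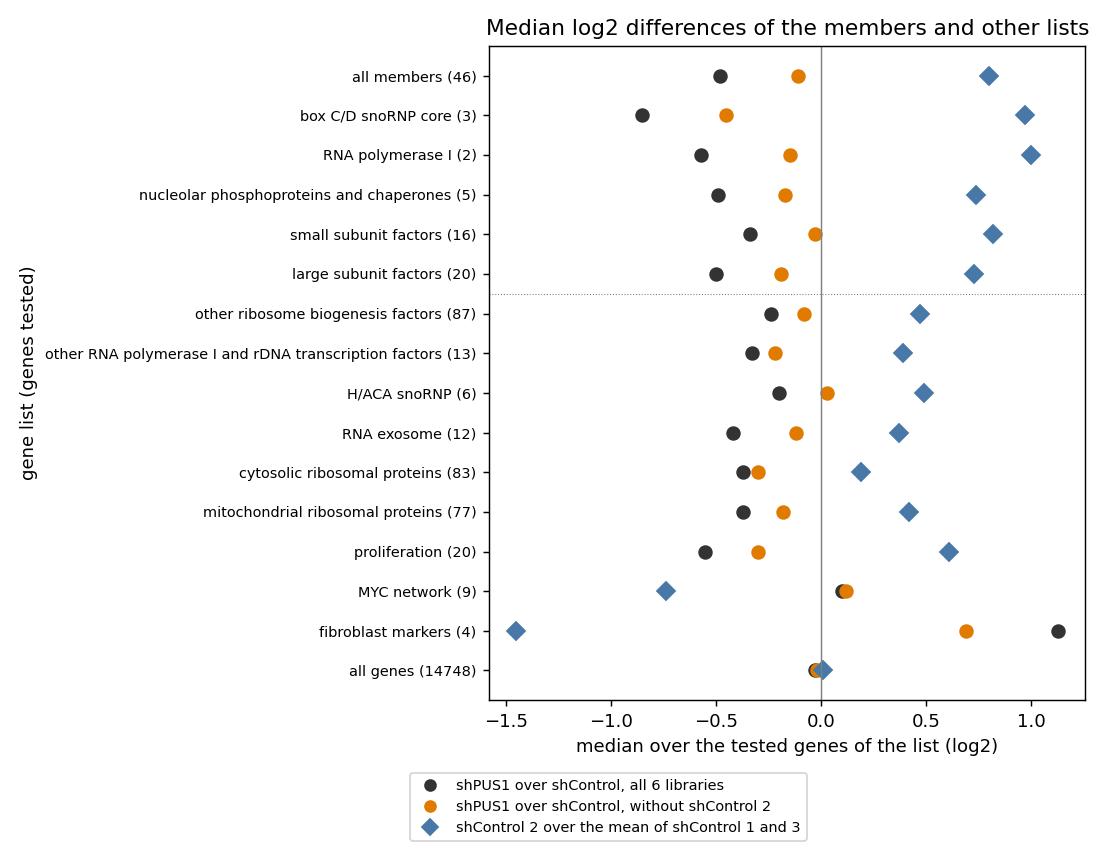
Medians over the tested genes of each list of the log2 fold change with all 6 libraries (black circles) and without shControl 2 (orange circles), and of the log2 ratio of shControl 2 to the mean of shControl 1 and 3 (blue diamonds). The members' diamond lies at 0.80 and that of all genes at 0.01, the cytosolic ribosomal proteins keep -0.30 without shControl 2 where the members keep -0.11, and the MYC network and fibroblast markers have their diamonds below 0.

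Most genes of a proliferation list moved with the members. The 20 proliferation genes were all highest in shControl 2 (median excess of 0.61). Their summed level was 3970, 6190 and 4080 CPM in the controls and 3520, 3400 and 3360 CPM in shPUS1. Their median fold changes were -0.55 and -0.30, and 19 and 18 of the 20 fold changes were negative. EdgeR called 1 lower with all 6 libraries and 7 without shControl 2, where 0.841% and 8.79% of all tested genes were lower. The former was cyclin A2 (CCNA2), at 143, 193 and 128 CPM against 67.7, 67.0 and 75.3 CPM (-1.15 ± 0.17, edgeR adjusted p = 0.0318, and -0.96 ± 0.10, adjusted p = 0.00113). CCNB2, a mitotic cyclin gene (-0.69 ± 0.15, adjusted p = 0.0575, and -0.57 ± 0.12, adjusted p = 0.0138), and AURKA, a mitotic kinase gene (-0.43 ± 0.12, adjusted p = 0.0922, and -0.39 ± 0.11, adjusted p = 0.0365), were among the 7. The proliferation marker MKI67 (0.07 ± 0.29 and 0.31 ± 0.26) was not called, and neither was PLK1 (-0.22 ± 0.25 and 0.13 ± 0.11). Both were positive without shControl 2. The part of proliferation in the members' values was not tested.

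Some markers of cell types moved as well. Of 7 fibroblast markers 4 were tested, and their list summed to 51.7, 16.5 and 63.3 CPM in the controls and to 87.4, 98.4 and 84.7 CPM in shPUS1. It was thus lowest in shControl 2, where the members were highest, and higher in every shPUS1 library than in every control. Lumican (LUM), a matrix proteoglycan, rose from 1.11, 0.157 and 0.545 CPM to 3.45, 4.65 and 4.54 CPM (log2 fold changes of 2.82 ± 0.55, edgeR adjusted p = 0.0462, and 2.32 ± 0.35, adjusted p = 0.00495), and COL1A1 (1.11 ± 0.35, adjusted p = 0.110, and 0.77 ± 0.15, adjusted p = 0.0123) and PDGFRB (1.00 ± 0.43, adjusted p = 0.195, and 0.59 ± 0.13, adjusted p = 0.0163) were called higher without shControl 2. The defining fibroblast genes COL1A2 and DCN had 0 to 5 and 0 to 7 counts in a library.

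Of the 8 basal and mesenchymal markers, 3 were called lower without shControl 2, where 8.79% of all tested genes were lower. These were LGALS1 (-0.77 ± 0.17 and -0.58 ± 0.08, edgeR adjusted p = 0.0544 and 0.0039), AXL (-0.60 ± 0.14 and -0.48 ± 0.10, adjusted p = 0.0623 and 0.0140) and VIM (-0.50 ± 0.14 and -0.40 ± 0.10, adjusted p = 0.0873 and 0.0305). The others were not called. MSN was at 0.20 ± 0.11 and 0.18 ± 0.10, with every shPUS1 library above every control. CAV1 (-0.42 ± 0.27 and -0.0 ± 0.09) and ANXA1 (-0.10 ± 0.14 and -0.09 ± 0.13) were near 0 without shControl 2. CD44 (-0.29 ± 0.11 and -0.22 ± 0.08) and FOSL1 (-0.39 ± 0.19 and -0.19 ± 0.13) were lower. The list summed to 6660 to 7920 CPM in the controls and 5220 to 5520 CPM in shPUS1. Of 12 luminal markers 8 were tested and 1 was called, KRT19, lower (-0.54 ± 0.16 and -0.68 ± 0.11, adjusted p = 0.102 and 0.00629), while XBP1 (0.45 ± 0.22 and 0.21 ± 0.11) and ERBB2 (-0.28 ± 0.14 and -0.18 ± 0.11) did not pass. Of 7 leukocyte markers 2 were tested, CD68 (-0.39 ± 0.12 and -0.42 ± 0.10, adjusted p = 0.1 and 0.0235) and CD14 (0.24 ± 0.35 and -0.06 ± 0.24), and the other 5 had under 3 counts in every library. The part of these markers in the members' values was not tested.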

How the data were processed

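Poly(A) RNA of 3 shControl and 3 shPUS1 libraries of MDA-MB-231 cells was sequenced as paired ends on a NovaSeq instrument, per the study's methods. The submitters' processing notes name HISAT2 and HTSeq 0.6.1, and the genome build, annotation and strandedness are not given in the sources used here. The deposited table holds unnormalized estimated counts for each gene, in part not whole, and FPKM, which the authors derived from those counts, the exonic length and the library total. The authors' statistics name DESeq2. Library totals ran from 14241505 to 19625998, and precision from counts covers counting error only. No per-sample column was left out, and 0 rows lacked a gene identifier.

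Rounded counts passed the filter filterByExpr and TMM scaling, and edgeR 4.0.16 (R 4.3.3) then gave its quasi-likelihood test, with Benjamini-Hochberg adjustment over all tested genes and a threshold of 0.05. The fit on 5 libraries was filtered and scaled anew. Standard errors of the edgeR fold changes were derived as the absolute log2 fold change divided by the square root of the test's F statistic. DESeq2 1.42.0 and limma 3.58.1 served as alternatives, on FPKM with pseudocounts of 0.1 and 1 for genes whose mean FPKM reached 1. The fits with edgeR, DESeq2 and limma after removal of the length trend were tried on simulated counts with 200 changed genes. At a log2 change of 0.5, edgeR recovered 4 of 200 with all 6 libraries and 72 of 200 without shControl 2. At a log2 change of 1 it recovered 157 and 200. No simulated library was set apart from the rest as shControl 2 was. Python 3.11.15, numpy 2.4.6, pandas 2.3.3 and matplotlib 3.10.9 were used. CPM (counts per 1000000 of the library) of single genes are TMM scaled, and CPM summed over a list are per library total without TMM.

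The 46 members, their roles and the other lists were chosen with earlier results of these data known, as was the comparison without shControl 2. In each role the 3 members with the smallest p with all 6 libraries and the 1 with the smallest absolute fold change were described in full, and all where a role has up to 4, with PUS1, MYC and up to 3 genes per other list. The replicate numbers were not taken as pairs, because the deviations of same-numbered libraries correlated at -0.053, -0.026 and -0.19. Gene positions are those of the deposited table, and 46 of 46 members overlap the gene of the same identifier in GENCODE release 29 (GRCh38), 13 with the same start and end. The rule for sequences foresaw longer stretches before the start, and windows of 30 bases around the motif are printed in their place for all but UTP14A. Alternatives were other scalings, tools, filters, thresholds, units, library weights, removal of a gene length trend, a replicate block and leaving out each library.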

Additional observations from a re-analysis of the deposited data

How the results depend on the processing

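The number of members called lower depended on the libraries and the fit, and the cause was not tested. With all 6 libraries it was 0 as reported (0.841% of all genes), 1 with library totals without TMM (0.895%) and 6 with DESeq2 (5.58%). It was 9 with no filter on low counts (1.95%), 1 with limma on log2(FPKM + 1) (1.45%) and 7 with voom and sample weights (9.48%). Removing the gene length trend gave 1 (1.15%), and unadjusted p gave 14 (12.8%). With 1 library left out it was 2 without shControl 3 (1.05%), 6 without shControl 2 (8.79%) and 0 otherwise (0.0%). Without shControl 2 it was 6 as reported, 0 with a 2-fold change required as well, and from 1 to 11 when a further library was left out (3 without shControl 1, 11 without shControl 3, 1, 2 and 3 without shPUS1 1, 2 and 3), where a lone control is assumed to vary like the shPUS1 libraries. The number called higher there was 0 as reported (9.8% of all genes), 1 with DESeq2 (12.4%) and 2 with the length trend removed (13.3%). Leaving out shPUS1 1, 2 or 3 as well gave 0, against 3.76%, 4.37% and 7.03% of all genes. With the replicate block, 0 members were called on 6 and on 5 libraries, and the medians were -0.41 and -0.08. The members' median stayed negative in every setting run, and with 1 library left out it lay between -0.62 and -0.11 around the reported -0.48.

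Among the 17 members described in full, signs turned against the fit of 6 libraries in POLR1A, NCL, DDX21, HEATR1 and NOC3L. In fits with more than 1 control library, none of these was called. Over the settings on 5 libraries POLR1A ran from -0.43 to 0.30, NCL from -0.36 to 0.06 and HEATR1 from 0.08 to 0.48. With voom and sample weights POLR1A stood at 0.00, DDX21 at 0.16 and HEATR1 at 0.31, and with 1 library left out DDX21 ran from -0.27 to 0.17 and HEATR1 from -0.27 to 0.26, the highest values being those without shControl 2 (HEATR1 was at 0.04 without shPUS1 3). NOC3L stood at -0.01 with library totals, at -0.00 on both FPKM scales, and between -0.08 and 0.14 with 1 library left out. Library totals without TMM for the counts of calls, all added settings on 5 libraries, and DESeq2, voom, no filter and FPKM + 0.1 for the median with 6 libraries were chosen after seeing the data. With 1 of 4 libraries left out (shControl 1 or any shPUS1 library), 0 of all genes were called lower, CCNA2 among those lost.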
